A study of Rattus norvegicus with 9 samples.

Results

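The genes described here are 39 genes that mark endothelial cells, the cells that line the inside of every blood and lymph vessel. They were taken by symbol, as genes of endothelial junctions, receptors and transcription factors. The rule itself uses no measured value, but the genes were chosen with earlier results of these data known. All 39 were found among the 37203 gene symbols of the count table, and 38 of them had enough counts to be among the 15482 genes tested. The gene that was not tested was Robo4, a guidance receptor of vessels, with at most 20 counts in any library.

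The tissue was the superior mesenteric artery (SMA), which feeds most of the small intestine, taken whole from 8-week-old Sprague-Dawley (SD) rats of 220 to 240 g. There were 9 libraries, 3 from normal rats, 3 from rats after 1 h of ischemia (labelled Ischemia 1h) and 3 from rats after 4 h (Ischemia 4h). In the ischemic groups, rats under sodium pentobarbital were bled through the right femoral artery, and the time ran from when the model was in place, so that the whole animal, and not the SMA alone, was short of blood. Whether normal rats were anaesthetized for the same time or had a sham operation is not given in the sources used here. The series description counts 3 rats in each group, whereas the study's methods speak of 9 chips of 3 conditions from 3 individuals. By those methods the artery was taken after the rat had been killed at the end of ischemia, so a rat could supply only 1 of the groups. The libraries were treated as separate rats, and p-values measure only the spread between these samples.

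Endothelial cells hold to each other through adherens and tight junctions, and they share small molecules with their neighbours through gap junction channels made of connexins. Their identity is kept by transcription factors of the ETS family, such as Erg and Fli1, together with partners of the GATA and Tal1 kind, which act on the genes of endothelial receptors. In an artery the lining is a single layer, so most RNA of the whole vessel comes from smooth muscle, and the outer coat adds small vessels, lymphatics, nerves and fat.

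Each library held 13114273 to 15504240 counts. Levels are given in CPM, counts scaled to a common library size with TMM factors, and 1 CPM stood for 12.1 to 17.9 counts. Robo4 ranged from 0 to 1.34 CPM over the 9 libraries, and its count of 0 in normal replicate 3 allows a level of up to 0.221 CPM (3 counts). Endothelial transcripts were plain in every library: Pecam1 ran from 112 to 293 CPM over the 9, and of 47 further endothelial genes that were looked up, 46 were matched to the count table and had counts in each. Their summed level ran from 3017 to 5617 CPM, against 11451 to 71584 CPM for 16 smooth muscle genes. Normal replicate 1 stood apart within its group, with 11451 CPM of smooth muscle genes against 49523 and 50706 CPM in the other normal libraries, and with the highest summed level of the 39 endothelial genes, 4410 CPM against 2201 to 3736 CPM in the other 8 libraries. Genes of sympathetic neurons summed to 7053, 7149 and 7092 CPM in replicates 1 and 3 at 1 h and replicate 3 at 4 h, and to between 30.1 and 797 CPM in the other 6 libraries. RNA from a whole vessel cannot tell fewer endothelial cells from less RNA per cell.

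To see how the lining of the SMA differed between normal and ischemic rats, each ischemic group was first compared with the normal group. Most endothelial identity genes had lower values after ischemia, among them the gap junction gene Gja5, the apelin receptor gene Aplnr, the secreted factor Egfl7 and the membrane protein gene Myct1. The main exception was Lyve1, the hyaluronan receptor of lymphatic vessels, which was higher. None of these differences passed the edgeR test: 0 of 38 genes were called at 1 h and 0 of 38 at 4 h, where a call needs a Benjamini-Hochberg adjusted p under 0.05 over all genes and a fold change over 1.5, and 0.0581% and 0.0904% of all genes tested were called. The lowest adjusted p of the 38 was 0.218 at 1 h (Gja5) and 0.160 at 4 h (Prox1).

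At an unadjusted p under 0.05, 12 of 38 genes differed from normal at 1 h, 11 lower and 1 higher, beside 16.7% of all genes (8.67% lower and 7.98% higher). At 4 h the count was 14, 13 lower and 1 higher, beside 12.4% of all genes (7.35% lower and 5.07% higher). The share of endothelial genes on the lower side was thus 28.9% at 1 h and 34.2% at 4 h. The list was not tested as a set, because its genes were chosen with earlier results known. DESeq2, run on the same counts, called 3 of the genes at 1 h, where it called 4.80% of the genes it gave an adjusted p, and 4 at 4 h, where it called 3.98%. All of its calls were on the lower side, where it called 2.37% at 1 h and 2.41% at 4 h: Gja5, Aplnr and Egfl7 at 1 h, and Aplnr, Egfl7, Myct1 and Prox1 at 4 h.

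The fitted log2 fold change was below 0 in 31 of 38 genes at 1 h and in 32 of 38 at 4 h, beside 50.6% and 47.7% of all genes. Its median over the 38 genes was -0.43 at 1 h and -0.65 at 4 h, where the median over all genes was -0.01 and 0.03. All 3 ischemic libraries lay below all 3 normal ones in 10 genes at 1 h (background 13.5%) and in 13 genes at 4 h (background 10.8%), and above them in 1 gene each time (backgrounds 12.8% and 7.93%). Both comparisons use the same 3 normal libraries, so their values are set side by side and are not separate evidence. Without normal replicate 1, the median was -0.21 at 1 h and -0.35 at 4 h, and the counts at an unadjusted p under 0.05 were 6 and 8 of 38, beside 17.1% and 10.1% of all genes. At 1 h the share was thus not above that of all genes. The genes were Calcrl, Cd34, Egfl7, Gja5 and Stab1 on the lower side and Nostrin on the higher side. Aplnr, Myct1 and Lyve1 had unadjusted edgeR p of 0.062, 0.13 and 0.056 at 1 h in that fit. Without that library the sign of the fitted value turned in 6 genes at 1 h (Cdh5, Cldn5, Eng, Fli1, Flt4 and Plvap) and in 4 at 4 h (Cdh5, Flt4, Nostrin and Ptprb).

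**Figure D1:**
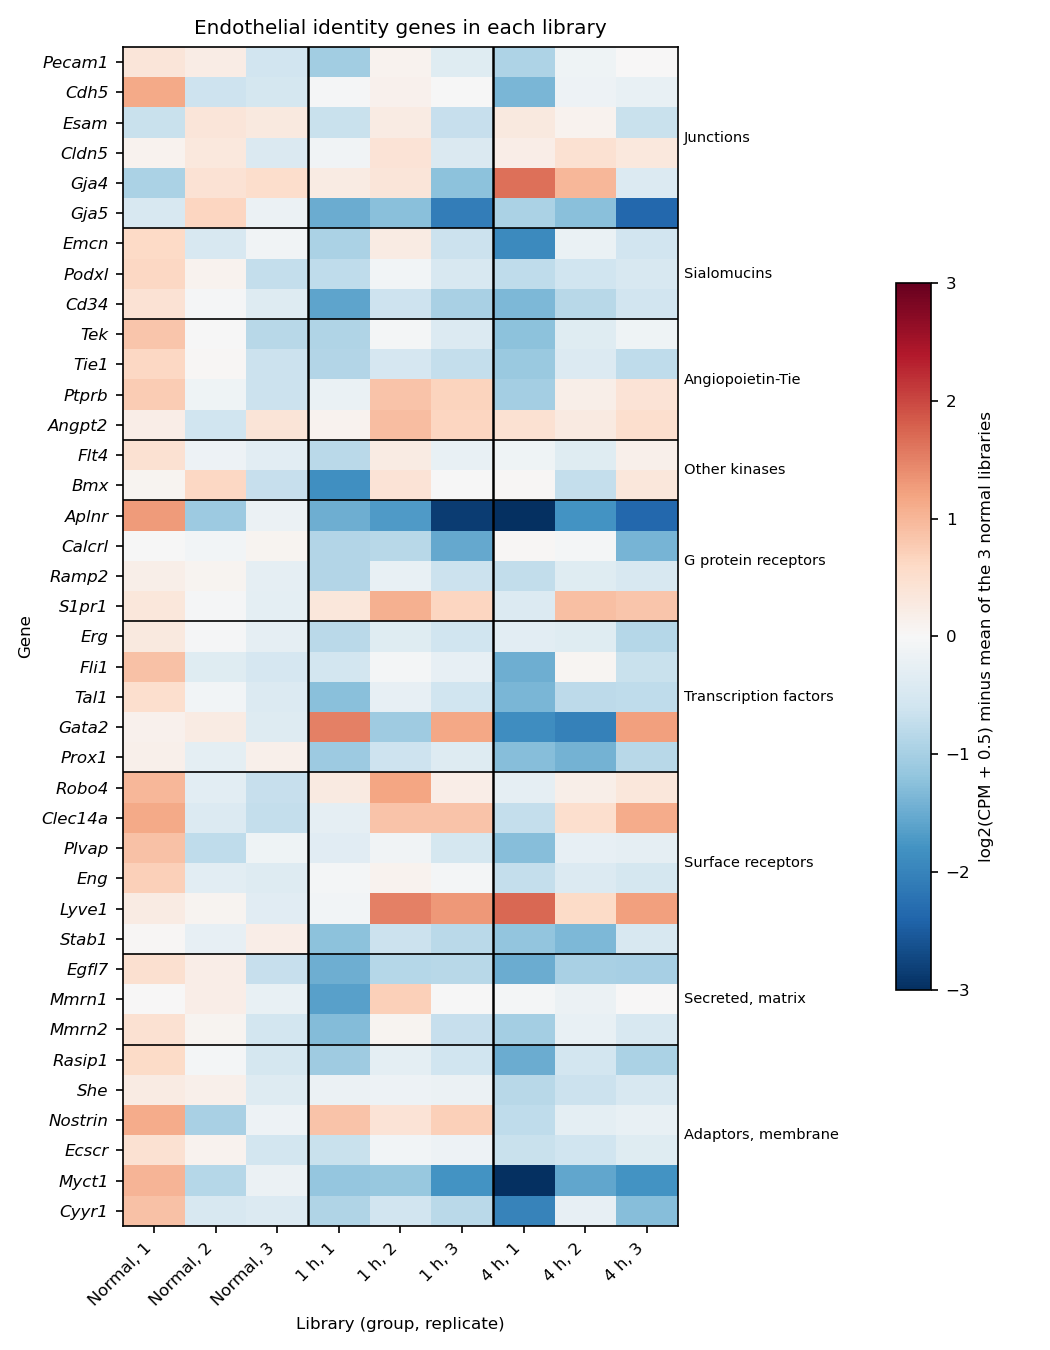
Levels of the 39 endothelial identity genes (vertical axis, grouped by role) in each of the 9 libraries (horizontal axis), coloured by log2(CPM + 0.5) minus the mean of the 3 normal libraries. Gja5, Aplnr, Egfl7 and Myct1 are blue in all 6 ischemic libraries and Lyve1 is red in 5 of them, while normal replicate 1 is redder than the other normal libraries for most genes.

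**Figure D2:**
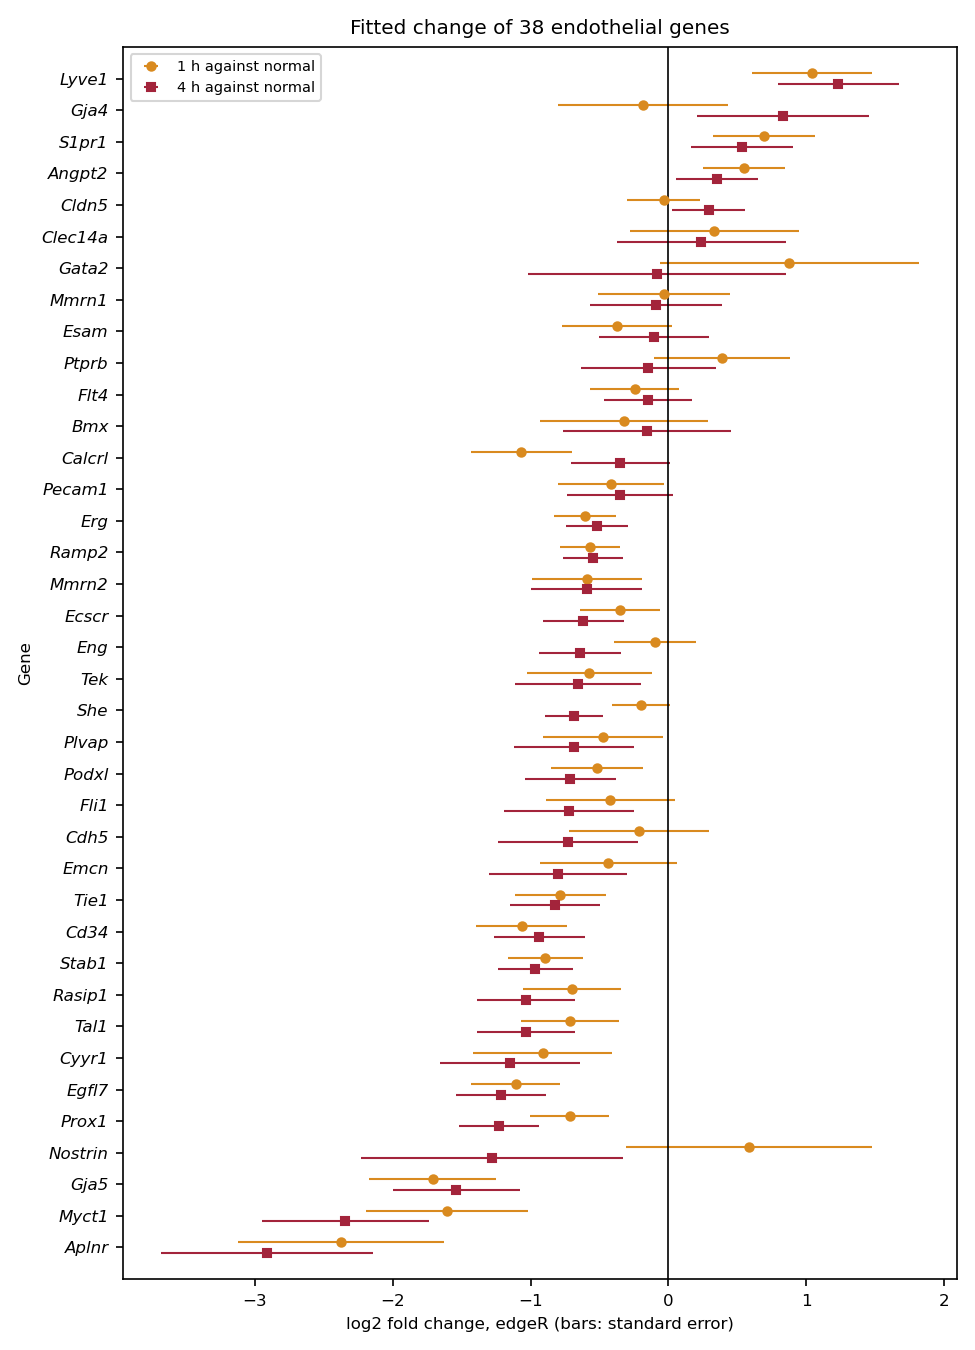
Fitted log2 fold change of the 38 tested genes (horizontal axis) with its standard error, after 1 h (circles) and after 4 h (squares) against the normal group, sorted by the 4 h value. The values run from -2.91 (Aplnr) to 1.23 (Lyve1) at 4 h, and 31 circles and 32 squares lie left of 0.

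Because ETS factors act on many endothelial genes, the stretch of DNA before the start of 5 genes is printed: the gap junction pair Gja5 and Gja4, whose fitted values lay on opposite sides of normal at 4 h, Egfl7 and Myct1, which were low, and Lyve1, which was high. The sequences are RefSeq windows of 250 bases before the gene start, given in gene direction, 5′ to 3′, from build GRCr8. The build behind the counts is not given in the sources used here. Capitals mark AGGAAG or its complement CTTCCT, a form of the site that ETS factors bind. Shorter forms such as GGAA were not searched. The windows are chr2:187290977-187291226 on the plus strand (Gja5), chr5:144920325-144920574 on the minus strand (Gja4), chr3:29805381-29805630 on the plus strand (Egfl7, the first of its 2 listed starts), chr1:44423228-44423477 on the plus strand (Myct1) and chr1:174410978-174411227 on the minus strand (Lyve1).
Gja5: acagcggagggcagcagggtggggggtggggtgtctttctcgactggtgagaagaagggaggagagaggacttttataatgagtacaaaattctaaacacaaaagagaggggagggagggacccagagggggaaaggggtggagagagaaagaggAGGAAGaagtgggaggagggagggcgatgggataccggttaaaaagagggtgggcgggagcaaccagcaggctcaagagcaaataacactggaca
Gja4: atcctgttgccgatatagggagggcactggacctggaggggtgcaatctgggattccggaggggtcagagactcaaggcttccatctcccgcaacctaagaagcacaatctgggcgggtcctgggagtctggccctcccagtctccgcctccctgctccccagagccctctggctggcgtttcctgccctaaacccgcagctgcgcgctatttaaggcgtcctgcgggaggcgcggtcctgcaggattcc
Egfl7: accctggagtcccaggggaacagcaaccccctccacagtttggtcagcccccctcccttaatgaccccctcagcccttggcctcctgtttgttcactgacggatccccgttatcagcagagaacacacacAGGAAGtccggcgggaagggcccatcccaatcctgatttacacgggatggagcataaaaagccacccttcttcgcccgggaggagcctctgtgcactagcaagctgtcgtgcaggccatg
Myct1: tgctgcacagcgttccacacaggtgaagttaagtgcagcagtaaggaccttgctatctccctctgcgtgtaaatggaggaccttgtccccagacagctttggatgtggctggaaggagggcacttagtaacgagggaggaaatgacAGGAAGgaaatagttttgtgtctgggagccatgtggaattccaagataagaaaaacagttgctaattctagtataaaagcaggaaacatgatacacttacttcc
Lyve1: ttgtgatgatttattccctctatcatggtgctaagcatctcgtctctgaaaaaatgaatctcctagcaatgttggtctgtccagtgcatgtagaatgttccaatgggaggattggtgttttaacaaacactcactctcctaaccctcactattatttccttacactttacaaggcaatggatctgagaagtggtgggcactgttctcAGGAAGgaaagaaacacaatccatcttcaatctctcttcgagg

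AGGAAG lay 95 bases before the start in Gja5, 120 in Egfl7, 104 in Myct1 and 43 in Lyve1. The Gja4 window held neither AGGAAG nor CTTCCT, but it did hold the shorter GGAA on the other strand (TTCC). RefSeq windows of 300 bases (250 before the start and 50 after) were found for 27 of the 39 genes. Only the 250 bases before the start were searched, here and for all symbols. In that stretch 15 of the 27 (55.6%) held AGGAAG on either strand, where 29.4% of all 27457 symbols with a window did. The GATA letters AGATAA were in 2 windows (7.41%, 10% of all), the E-box CAGATG of Tal1 in 6 (22.2%, 13.7% of all) and CCACCC, bound by KLF factors, in 10 (37%, 26.6% of all), each on either strand. The motifs were searched separately, and matches that share bases were each counted. A match is only a run of letters, and Egfl7 and Lyve1, which lay on opposite sides of normal, both held AGGAAG.

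Among the 6 junction genes, the connexin genes Gja5 and Gja4 had fitted differences of opposite sign at 4 h, and the difference between the genes was not tested. Gja5 codes for connexin 40, a gap junction channel of arterial endothelium. It was at 18.5, 40.97 and 22.9 CPM in normal libraries, 8.89, 10.5 and 5.77 CPM after 1 h and 13.1, 10.6 and 4.62 CPM after 4 h. All 6 ischemic libraries were below the lowest normal library. The log2 fold change was -1.71 at 1 h (standard error, SE, 0.46, edgeR Benjamini-Hochberg adjusted p = 0.218) and -1.54 at 4 h (SE 0.46, adjusted p = 0.232). With the sympathetic neuron score of each library (the mean log2 CPM of 15 neuron genes) as a covariate, Gja5 was called by edgeR at 4 h (log2 fold change -1.50, adjusted p = 0.0388), and it was -0.81 at 1 h in that fit.

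Gja4 codes for connexin 37, the other main connexin of arterial endothelium. It was at 37.03, 98.1 and 104 CPM in normal libraries, 86.6, 93.4 and 30.5 CPM after 1 h and 228, 144 and 54.5 CPM after 4 h. The groups overlapped, and replicates 1 and 2 at 4 h were the highest of all 9 libraries. Its log2 fold change was -0.18 at 1 h (SE 0.62, edgeR adjusted p = 0.889) and 0.83 at 4 h (SE 0.62, adjusted p = 0.601). Gja4 and the summed smooth muscle genes were both lowest in normal replicate 1 and in replicate 3 at 1 h and highest in replicate 1 at 4 h, and the part of smooth muscle content in the Gja4 values was not tested beyond the fit with the smooth muscle score as a covariate, where Gja4 was 0.08 at 1 h and 0.39 at 4 h and Gja5 was -1.56 and -1.82.

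The remaining junction genes had smaller fitted differences than Gja5, and none passed the edgeR test. Esam, an adhesion molecule of tight junctions and the gene with the highest mean CPM of the group, was at 150.2, 308 and 294 CPM in normal libraries, 149.8, 284 and 147 CPM after 1 h and 291, 258 and 150.1 CPM after 4 h. Its lowest values were in normal replicate 1, replicates 1 and 3 at 1 h and replicate 3 at 4 h. These libraries were also the lowest in summed smooth muscle genes, at 11451 to 26679 CPM. The part of smooth muscle content in the Esam values was not tested beyond the smooth muscle covariate fit (-0.20 at 1 h). Pecam1, which joins neighbouring endothelial cells, had means of 239 ± 74.9 CPM in normal libraries, 179 ± 67.5 CPM at 1 h and 187 ± 58.4 CPM at 4 h (SD, n = 3 each). Cdh5, the cadherin of endothelial adherens junctions, was at 215 CPM in normal replicate 1 and between 37.4 and 106 CPM in the other 8 libraries. Cldn5, a claudin that seals tight junctions, had means of 60.8 ± 15.5, 59.4 ± 17.8 and 74.5 ± 6.68 CPM in the same order. The log2 fold changes of these 4 genes lay between -0.73 (Cdh5 at 4 h) and 0.29 (Cldn5 at 4 h), with adjusted p from 0.568 to 0.953. The values of Cdh5 were 0.61 at 1 h and 0.09 at 4 h without normal replicate 1.

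**Figure D3:**
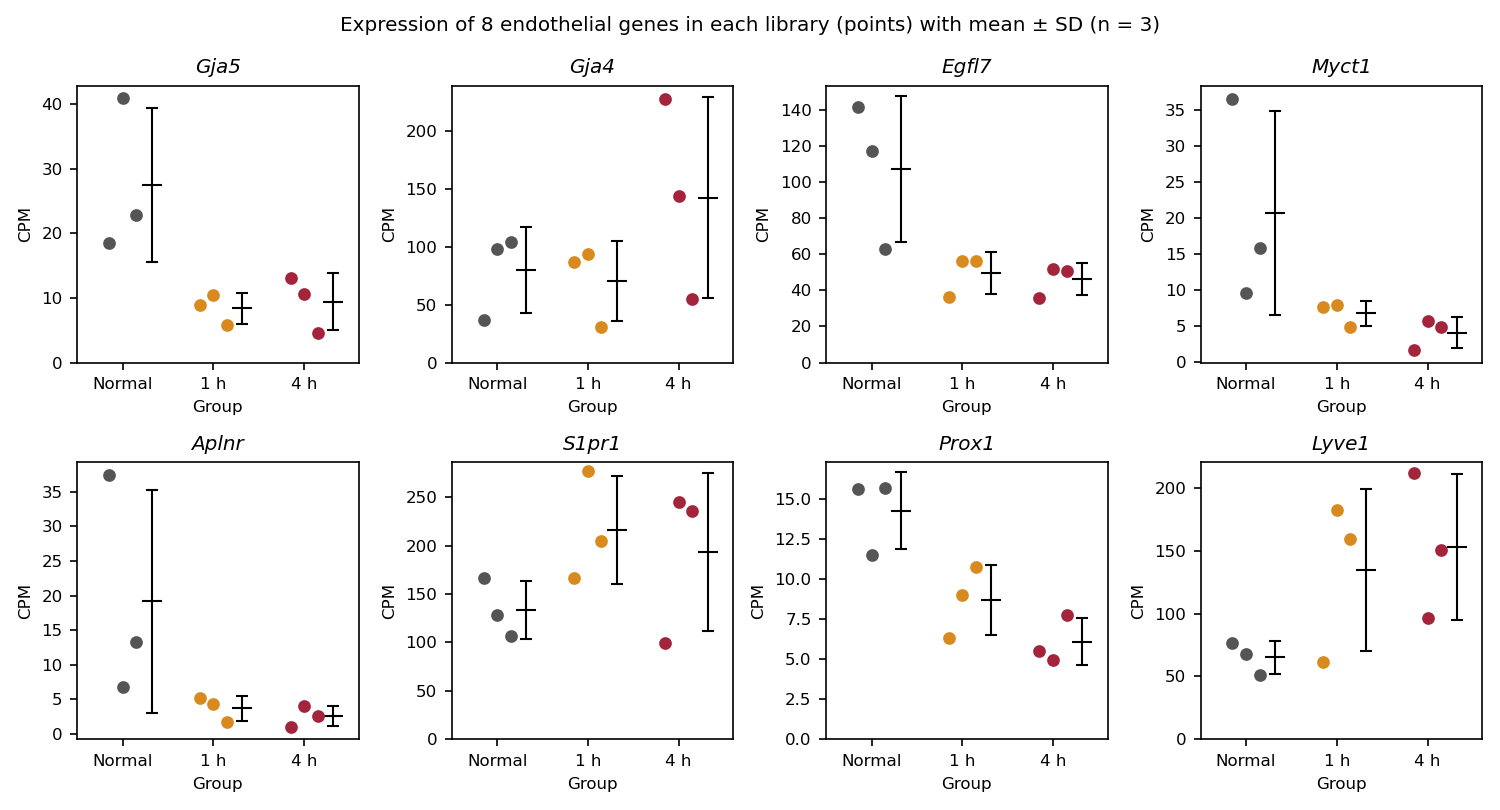
CPM of 8 endothelial genes in each library (points), with mean and SD of each group (bars, n = 3). Gja5, Aplnr, Egfl7, Myct1 and Prox1 show no overlap between the normal and the ischemic points, and Lyve1 lies between 51.1 and 76.7 CPM in normal rats and between 61.1 and 212 CPM in ischemic rats.

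The 3 sialomucins, heavily glycosylated proteins of the surface that faces the blood, all had lower fitted values after ischemia. Cd34, a sialomucin also made by blood progenitors and by fibroblasts of the outer coat, was at 72.3, 52.1 and 40.4 CPM in normal libraries, 17.5, 34.3 and 26.9 CPM after 1 h and 20.7, 29.98 and 35.4 CPM after 4 h. No ischemic library reached the lowest normal one, and the log2 fold change was -1.06 at 1 h (SE 0.33, edgeR adjusted p = 0.233) and -0.94 at 4 h (SE 0.33, adjusted p = 0.303). Fibroblast genes summed to 3851 to 7242 CPM in normal libraries, 3780 to 5340 CPM at 1 h and 4612 to 5467 CPM at 4 h, so the sums overlapped. Of the 9 fibroblast genes, 8 had a fitted value below 0 at 1 h (median log2 fold change -0.37) and 6 at 4 h (median -0.15), and 0 had an unadjusted p under 0.05 by edgeR. The part of fibroblasts in the Cd34 values was not tested. Podxl, podocalyxin, was at 265, 187 and 105 CPM in normal libraries, 102, 164 and 123 CPM after 1 h and 102, 114 and 124 CPM after 4 h, and normal replicate 3 lay within the ischemic range. Emcn, endomucin, which is found mainly on veins and capillaries, had means of 64.6 ± 25.5, 47.8 ± 21.9 and 37.05 ± 19.2 CPM in normal, 1 h and 4 h libraries. The log2 fold changes of Podxl and Emcn ran from -0.80 to -0.44, and their groups overlapped. Without normal replicate 1 they were -0.17 at 1 h and -0.37 at 4 h for Podxl, and -0.07 and -0.44 for Emcn.

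The angiopoietin-Tie system keeps the endothelium quiet: angiopoietin 1 from neighbouring cells activates the receptor kinase Tie2 (Tek), the related receptor Tie1 modulates it, the phosphatase Ptprb opposes it, and angiopoietin 2 (Angpt2), made by endothelial cells themselves, can block it. Tie1 was at 237, 159 and 98.6 CPM in normal libraries, 83.8, 109 and 94.4 CPM after 1 h and 70.9, 117 and 91.7 CPM after 4 h. Its log2 fold change was -0.78 at 1 h (SE 0.33, edgeR adjusted p = 0.294) and -0.82 at 4 h (SE 0.33, adjusted p = 0.359), and normal replicate 3 lay within the ischemic range in both comparisons. Without normal replicate 1 these values were -0.43 and -0.46.

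Ptprb, the gene with the highest mean CPM of this group, was at 507, 273 and 191 CPM in normal libraries, 258, 542 and 471 CPM after 1 h and 148, 336 and 395 CPM after 4 h, with wide overlap. Tek had means of 145 ± 81.1, 97.7 ± 27.96 and 92.3 ± 33.6 CPM and Angpt2 of 34.5 ± 11.2, 50.5 ± 14.2 and 44.1 ± 3.81 CPM in normal, 1 h and 4 h libraries. Tek was thus on the lower side (log2 fold change -0.57 and -0.66) and Angpt2 on the higher side (0.55 and 0.35), both with overlap and with adjusted p of 0.343 or more. The Tek values were -0.05 and -0.14 without normal replicate 1. The count of Angpt2 reads per Tek read was 0.164, 0.169 and 0.589 in normal libraries, 0.510, 0.508 and 0.532 at 1 h and 0.829, 0.390 and 0.392 at 4 h. The ratio was low in normal replicates 1 and 2, but normal replicate 3 lay above 5 of the 6 ischemic libraries.

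A list of 9 further genes of this system was tested, and edgeR called 0 of them, while an unadjusted p under 0.05 was met by 3 at 1 h (2 higher, 1 lower) and by 4 at 4 h (3 higher, 1 lower), beside 16.7% and 12.4% of all genes. Foxo3, a forkhead factor held back by AKT signalling, was at 23.9, 35.7 and 20.3 CPM in normal libraries, 53.5, 76.1 and 59.7 CPM after 1 h and 55.3, 68.3 and 79.3 CPM after 4 h. The ischemic libraries were all above the normal ones, with a log2 fold change of 1.25 at 1 h (edgeR adjusted p = 0.161) and 1.35 at 4 h (adjusted p = 0.0919). Klf4, a flow-responsive factor that smooth muscle also makes, had log2 fold changes of 0.92 and 1.48 (adjusted p = 0.216 and 0.0712). Map3k3, a kinase upstream of the KLF factors, was lower by the fit at both times (-0.50 and -0.51, adjusted p = 0.261 and 0.291). Angpt4, a further Tie2 ligand, had a log2 fold change of 2.21 at 4 h with overlap, since replicate 1 held 23.1 CPM and the other 8 libraries 1.45 to 5.48 CPM. Foxo3, Klf4 and Map3k3 are made by many cell types of the vessel wall.

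Of the other kinase genes, Flt4, the VEGF-C receptor of lymphatic endothelium, was at 37.2, 24.1 and 21.5 CPM in normal libraries, 15.2, 31.9 and 22.9 CPM after 1 h and 24.4, 20.6 and 29.8 CPM after 4 h, and Bmx, a cytosolic kinase of arterial endothelium, was at 11.6, 16.99 and 6.57 CPM in normal libraries, 2.67, 14.7 and 10.8 CPM after 1 h and 11.2, 6.46 and 14.05 CPM after 4 h. Their groups overlapped, and the fitted changes ran from -0.32 to -0.15, with SE of 0.32 (Flt4) and 0.61 (Bmx).

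The G protein-coupled receptor genes and their partner Ramp2 held the largest fitted difference of the 38 genes. Aplnr, the receptor for apelin, which marks sprouting and venous or capillary endothelium, was at 37.4, 6.78 and 13.3 CPM in normal libraries, 5.15, 4.27 and 1.66 CPM after 1 h and 1.07, 3.98 and 2.57 CPM after 4 h. All ischemic libraries lay below all normal ones, with a log2 fold change of -2.38 at 1 h (SE 0.75, edgeR adjusted p = 0.235) and -2.91 at 4 h (SE 0.77, adjusted p = 0.187). DESeq2 gave -2.35 (Benjamini-Hochberg adjusted p = 0.0355) and -2.89 (adjusted p = 0.00543). The normal libraries differed among themselves by more than 5-fold, and without normal replicate 1 the edgeR values were -1.44 and -1.98.

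Calcrl, the receptor for adrenomedullin and CGRP, was at 70.9, 67.9 and 75.7 CPM in normal libraries, 38.4, 39.7 and 24.5 CPM after 1 h and 72.7, 69.1 and 26.9 CPM after 4 h. At 1 h it was below normal in 3 of 3 libraries (log2 fold change -1.07, SE 0.36, edgeR adjusted p = 0.260), and at 4 h replicates 1 and 2 were at the normal level while replicate 3 was low (-0.35, SE 0.36, adjusted p = 0.707). Replicates 1 and 3 at 1 h and replicate 3 at 4 h, the libraries high in sympathetic neuron genes, were the 3 lowest in Calcrl. With the neuron score as a covariate the 1 h value was -0.51. Ramp2, the membrane partner that makes Calcrl an adrenomedullin receptor, was at 79.3, 74.1 and 57.6 CPM in normal libraries, 37.9, 59.6 and 44.6 CPM after 1 h and 41.4, 53.8 and 49.5 CPM after 4 h. Its log2 fold change was -0.57 at 1 h (SE 0.22, edgeR adjusted p = 0.281) and -0.55 at 4 h (SE 0.22, adjusted p = 0.360), with 1 library overlapping at 1 h and none at 4 h.

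S1pr1, the sphingosine 1-phosphate receptor that tightens the endothelial barrier, was on the other side. It was at 166, 128 and 107 CPM in normal libraries, 167, 277 and 205 CPM after 1 h and 98.9, 245 and 236 CPM after 4 h. The 1 h libraries lay above the normal ones, by less than 1 CPM for the closest pair, and at 4 h replicate 1 was below them. The log2 fold change was 0.69 at 1 h (SE 0.37, edgeR adjusted p = 0.341) and 0.53 at 4 h (SE 0.37, adjusted p = 0.580).

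Of the 5 transcription factor genes, Erg, Tal1 and Prox1 had an unadjusted p under 0.05 in at least 1 comparison with normal, all on the lower side. Erg, the ETS factor that holds endothelial identity, was at 75.3, 59.6 and 50.5 CPM in normal libraries, 34.4, 47.1 and 40.1 CPM after 1 h and 48.6, 47.4 and 33.5 CPM after 4 h, with every ischemic library below the normal ones. Its log2 fold change was -0.61 at 1 h (SE 0.22, edgeR adjusted p = 0.275) and -0.52 at 4 h (SE 0.22, adjusted p = 0.401). Fli1, its close relative, which blood cells also make, had means of 42.7 ± 24.6, 31.9 ± 5.49 and 25.9 ± 13.2 CPM and overlapped. Tal1, a basic helix-loop-helix factor of endothelium and blood progenitors, was at 27.1, 18.1 and 14.2 CPM in normal libraries, 7.68, 15.96 and 12.5 CPM after 1 h and 7.10, 10.8 and 11.01 CPM after 4 h, with a log2 fold change of -0.71 at 1 h (adjusted p = 0.323) and -1.03 at 4 h (adjusted p = 0.294). The groups overlapped at 1 h through replicate 2 and did not overlap at 4 h.

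Prox1, the factor that sets lymphatic identity, was at 15.7, 11.5 and 15.7 CPM in normal libraries, 6.35, 9.01 and 10.7 CPM after 1 h and 5.53, 4.97 and 7.78 CPM after 4 h. All ischemic libraries were below the normal ones. The log2 fold change was -0.72 at 1 h (SE 0.29, edgeR adjusted p = 0.288) and -1.23 at 4 h (SE 0.29, adjusted p = 0.160), and DESeq2 called it at 4 h (-1.21, Benjamini-Hochberg adjusted p = 0.0103).

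Gata2, a zinc finger factor of endothelium that sympathetic neurons and mast cells also make, was at 48.7, 53.1 and 34.2 CPM in normal libraries, 128, 20.9 and 101 CPM after 1 h and 11.8, 10.5 and 106 CPM after 4 h. Its 3 highest libraries were the 3 with over 7000 CPM of sympathetic neuron genes, and in the other 3 ischemic libraries it was at 20.9, 11.8 and 10.5 CPM, below the normal range. The group means therefore hide opposite values, and the log2 fold changes of 0.88 at 1 h and -0.08 at 4 h carry SE of 0.94 and 0.94. With the neuron score as a covariate they were -1.18 and -1.29. Mast cell genes summed to between 2.73 and 11.2 CPM over the 9 libraries.

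The surface receptors split into lower, overlapping and higher genes. Stab1, a scavenger receptor of sinusoidal and lymphatic endothelium that macrophages also make, was at 75.6, 62.6 and 85.4 CPM in normal libraries, 31.3, 47.3 and 41.7 CPM after 1 h and 32.4, 28.99 and 53.2 CPM after 4 h. No ischemic library reached the normal range, with a log2 fold change of -0.89 at 1 h (SE 0.27, edgeR adjusted p = 0.232) and -0.96 at 4 h (SE 0.27, adjusted p = 0.211). The 10 macrophage genes summed to 135, 41.5 and 97.3 CPM in normal libraries, 68.2, 66.6 and 111 CPM at 1 h and 29.0, 48.0 and 81.2 CPM at 4 h, so the sums overlapped. Of the 9 macrophage genes tested, 8 had a fitted value below 0 at 1 h (median log2 fold change -0.15) and 9 at 4 h (median -0.83), none with an unadjusted p under 0.05, and the remaining gene, Marco, had no counts in replicates 1 and 3 at 4 h. The part of macrophages in the Stab1 values was not tested.

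Eng, endoglin, a coreceptor for BMP9 and the gene with the highest mean CPM of the receptors, was at 246, 120.00 and 115 CPM in normal libraries, 144, 161 and 144 CPM after 1 h and 91.5, 113 and 104 CPM after 4 h. The highest 4 h library (113 CPM) lay just below the lowest normal one (115 CPM), with a log2 fold change of -0.64 (SE 0.30, edgeR adjusted p = 0.432), and the 1 h value was -0.10. Eng was 0.35 at 1 h and -0.19 at 4 h in the fit without normal replicate 1. Plvap, which forms the diaphragms of fenestrated capillaries, was at 186, 59.3 and 91.1 CPM in normal libraries, 78.6, 93.6 and 69.8 CPM after 1 h and 40.8, 84.7 and 83.7 CPM after 4 h, and Clec14a, a C-type lectin of endothelium, had means of 64.8 ± 48.4, 81.7 ± 31.4 and 76.5 ± 42.6 CPM. Both overlapped, with log2 fold changes of -0.48 and -0.69 for Plvap and 0.33 and 0.24 for Clec14a. Without normal replicate 1 these were 0.10 and -0.11 for Plvap and 1.14 and 1.05 for Clec14a.

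Lyve1 was the only one of the 38 genes on the higher side at an unadjusted p under 0.05, in both comparisons. It was at 76.7, 67.7 and 51.1 CPM in normal libraries, 61.1, 183 and 159 CPM after 1 h and 212, 96.4 and 151 CPM after 4 h. At 1 h replicates 2 and 3 were above the normal range and replicate 1 within it, and at 4 h all 3 libraries were above it. The log2 fold change was 1.04 at 1 h (SE 0.44, edgeR adjusted p = 0.293) and 1.23 at 4 h (SE 0.44, adjusted p = 0.307). Some macrophages of the vessel wall also carry Lyve1, and their part in its values was not tested.

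Among the secreted proteins, Egfl7, which endothelial cells lay down in the matrix around them, was at 141, 117 and 62.6 CPM in normal libraries, 36.4, 56.2 and 56.4 CPM after 1 h and 36.01, 51.6 and 50.8 CPM after 4 h. Every ischemic library was below every normal one. The log2 fold change was -1.11 at 1 h (SE 0.33, edgeR adjusted p = 0.230) and -1.22 at 4 h (SE 0.33, adjusted p = 0.192), and DESeq2 called it at both times (-1.08 with Benjamini-Hochberg adjusted p = 0.0471, and -1.19 with 0.0251). Mmrn1, a multimerin stored by platelets and lymphatic endothelium, was at 186, 211 and 158 CPM in normal libraries, 59.2, 302 and 181 CPM after 1 h and 176, 162 and 184 CPM after 4 h. Its log2 fold change was -0.03 and -0.09 with SE of 0.48, and the 1 h libraries alone spanned 59.2 to 302 CPM. Mmrn2, a matrix ligand of Clec14a, had means of 151 ± 49.8, 100.1 ± 47.9 and 99.97 ± 27.1 CPM and overlapped.

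The adaptor and membrane protein genes had mostly lower fitted values, in 5 of 6 at 1 h and 6 of 6 at 4 h. Myct1, a small membrane protein of endothelium, was at 36.6, 9.62 and 15.8 CPM in normal libraries, 7.68, 7.88 and 4.79 CPM after 1 h and 1.65, 5.71 and 4.81 CPM after 4 h. All ischemic libraries were below all normal ones, with a log2 fold change of -1.61 at 1 h (SE 0.59, edgeR adjusted p = 0.272) and -2.34 at 4 h (SE 0.61, adjusted p = 0.179). DESeq2 called it at 4 h (-2.32, Benjamini-Hochberg adjusted p = 0.00688). Without normal replicate 1 the edgeR values were -0.91 and -1.64. Rasip1, a partner of small GTPases needed for vessel lumens, was at 106, 67.7 and 49.3 CPM in normal libraries, 33.5, 57.4 and 46.7 CPM after 1 h and 24.8, 48.2 and 36.3 CPM after 4 h, with a log2 fold change of -0.70 at 1 h (edgeR adjusted p = 0.328) and -1.03 at 4 h (adjusted p = 0.296). It overlapped at 1 h and not at 4 h, and without normal replicate 1 the values of Rasip1 were -0.35 and -0.68.

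She, an SH2 domain adaptor, was at 35.3, 33.03 and 22.4 CPM in normal libraries, 26.2, 26.8 and 26.1 CPM after 1 h and 16.4, 18.97 and 21.2 CPM after 4 h. At 1 h its 3 libraries agreed within 1 CPM and lay inside the normal range, and at 4 h all 3 were lower than the other 6 libraries. The log2 fold change was -0.20 at 1 h (SE 0.21, edgeR adjusted p = 0.619) and -0.68 at 4 h (SE 0.21, adjusted p = 0.243). Cyyr1, a small cysteine and tyrosine-rich membrane protein, was at 103, 40.2 and 41.8 CPM in normal libraries, 29.5, 37.1 and 31.9 CPM after 1 h and 13.5, 47.1 and 22.9 CPM after 4 h. The 1 h libraries lay below the normal ones (-0.91, SE 0.51, adjusted p = 0.351), the 4 h libraries overlapped them through replicate 2 (-1.15, SE 0.51, adjusted p = 0.407), and the 1 h value was -0.32 without normal replicate 1. Ecscr, a surface regulator of endothelial migration, had means of 22.7 ± 7.72, 17.8 ± 3.72 and 14.8 ± 1.77 CPM with overlap. Nostrin, an adaptor that carries the nitric oxide synthase of endothelium, was at 1.96 CPM or less in every library, so that its values rest on few counts.

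The 4 h group was compared with the 1 h group to ask whether the later stage differed from the earlier one. By edgeR 0 of 38 genes were called, as were 0 of all 15482 genes, and DESeq2 also called 0. Only She had an unadjusted p under 0.05 (log2 fold change -0.48, SE 0.21, edgeR adjusted p = 0.856), beside 2.58% of all genes. The libraries did not overlap in 4 genes, all lower at 4 h (background 3.04%). These were She, Nostrin, Cdh5 with 95.2 to 106 CPM at 1 h against 37.4 to 87.2 CPM at 4 h, and Eng with 144 to 161 CPM against 91.5 to 113 CPM. The median log2 fold change of the 38 genes was -0.13, where that of all genes was -0.04. It changed sign to 0.06 without replicate 2 at 1 h, the 1 h library with the highest median level of these genes.

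Within one library the ratio of counts of a pair of genes does not depend on library size. Ratios of 6 pairs were formed after the values were seen, and they are given as a description with no test. The count of Gja4 reads per Gja5 read was 2.01, 2.39 and 4.55 in normal libraries, 9.74, 8.90 and 5.29 at 1 h and 17.3, 13.6 and 11.8 at 4 h. The 3 groups did not overlap, with the 1 h libraries in the middle. Lyve1 reads per Prox1 read numbered 4.90, 5.87 and 3.25 in normal libraries, 9.62, 20.3 and 14.8 at 1 h and 38.4, 19.4 and 19.4 at 4 h, so that both ischemic groups lay above the normal one. S1pr1 reads per Aplnr read numbered 4.44, 18.8 and 8.04, then 32.4, 64.8 and 124, then 92.1, 61.6 and 91.6, again with no overlap with normal. Tek reads per Tie1 read ran from 0.745 to 1.31 and Calcrl reads per Ramp2 read from 0.543 to 1.76 over all 9 libraries. For both of these pairs the groups overlapped.

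**Figure D4:**
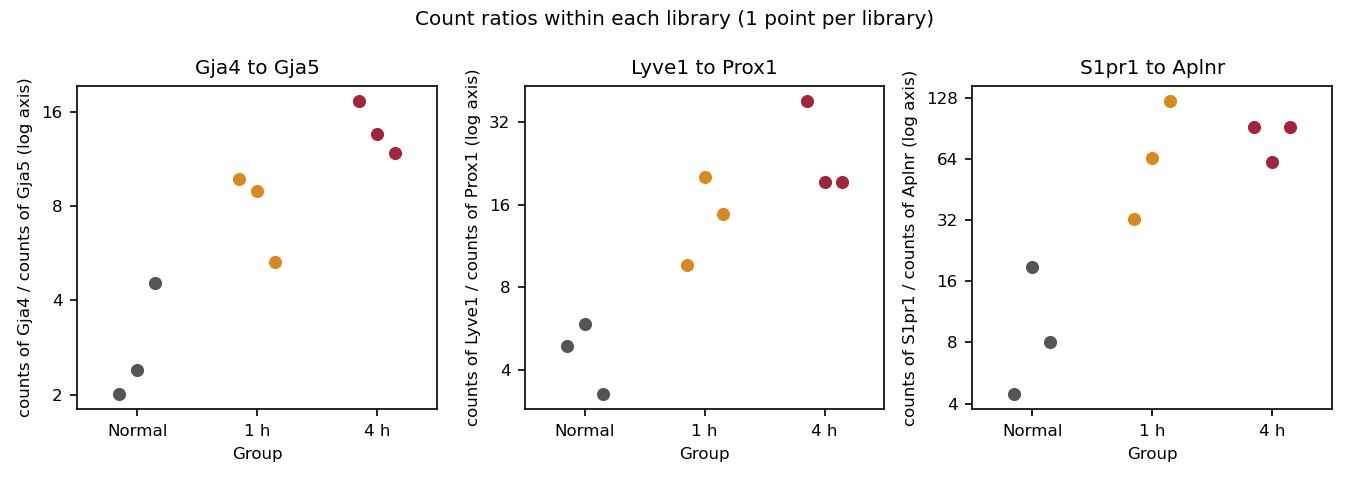
Ratio of the counts of a pair of genes in each library (points, log axis) by group, for Gja4 to Gja5, Lyve1 to Prox1 and S1pr1 to Aplnr. The normal libraries lie lowest in each panel, at 2.01 to 4.55, 3.25 to 5.87 and 4.44 to 18.8.

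The genes were also read by the vessel bed they mark. Of the 3 arterial genes Gja5 was low, and Gja4 and Bmx overlapped with normal at both times. The fitted value of Gja4 at 4 h was above 0 (0.83, SE 0.62). Of the 4 lymphatic genes Prox1 was low, Lyve1 high, and Flt4 and Mmrn1 overlapped. Both microvessel genes, Aplnr and Plvap, had fitted values below 0, which for Plvap at 1 h held only with normal replicate 1 included. A list of 7 further lymphatic genes had 0 calls by edgeR, and 1 of them had an unadjusted p under 0.05, Tbx1, a T-box factor, at 1 h, beside 16.7% of all genes (log2 fold change -0.79, adjusted p = 0.235). Ccl21, the chemokine of lymphatic endothelium, was at 208, 140.3 and 144 CPM in normal libraries, 93.6, 83.8 and 103 CPM after 1 h and 409, 146 and 69.9 CPM after 4 h. The 1 h libraries lay below the normal ones (log2 fold change -0.81, SE 0.55, edgeR adjusted p = 0.427), and the 4 h libraries overlapped them.

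To set the 39 genes against the rest of the endothelial program, 46 other endothelial genes were tested in the same fits. Of these, edgeR called 0 in each comparison. An unadjusted p under 0.05 was met by 12 at 1 h (5 higher, 7 lower) and by 12 at 4 h (1 higher, 11 lower), which is 26.1% of the 46 each time, beside 16.7% of all genes at 1 h (7.98% higher and 8.67% lower) and 12.4% at 4 h (5.07% higher and 7.35% lower). The median log2 fold change was -0.28 and -0.46. DESeq2 called 4 higher and 3 lower at 1 h, where it called 2.43% of all genes higher and 2.37% lower, and 1 higher and 6 lower at 4 h, where it called 1.57% and 2.41%. The genes on the lower side included Sox18, a transcription factor of arterial and lymphatic development, at 101, 63.9 and 23.2 CPM in normal libraries, 11.3, 8.41 and 6.81 CPM after 1 h and 6.44, 6.54 and 5.54 CPM after 4 h. Its log2 fold change was -2.83 at 1 h (edgeR adjusted p = 0.121) and -3.34 at 4 h (adjusted p = 0.0701). Nr2f2, the venous and lymphatic factor COUP-TFII, was at 189.5, 184 and 212 CPM in normal libraries, 77.9, 71.9 and 50.8 CPM after 1 h and 100.2, 113 and 58.4 CPM after 4 h, and Ephb4, the venous ephrin receptor, had log2 fold changes of -0.79 and -1.11 (adjusted p = 0.242 and 0.153).

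The 5 genes on the higher side at 1 h were Edn1, Selp, Sele, the proton-sensing receptor gene Gpr4 and the tetraspanin gene Tspan18. Edn1, which codes for the vasoconstrictor endothelin 1, was at 13.3, 7.14 and 5.24 CPM in normal libraries, 15.8, 46.8 and 39.95 CPM after 1 h and 30.5, 44.3 and 66.5 CPM after 4 h, with log2 fold changes of 1.996 and 2.46 (edgeR adjusted p = 0.210 and 0.118). Selp and Sele, the P- and E-selectins that catch leukocytes, had log2 fold changes of 3.86 and 4.13 at 1 h (adjusted p = 0.232 and 0.188). Sele was at 9.56 to 10.4 CPM at 1 h, against 0.437 to 0.671 CPM in the normal group and 0.165 to 4.35 CPM at 4 h. Kdr (a VEGF receptor), Vwf (von Willebrand factor) and Nos3 (the endothelial nitric oxide synthase) did not reach an unadjusted p under 0.05, with log2 fold changes of 0.14, -0.56 and 0.45 at 1 h and -0.46, -0.51 and -0.09 at 4 h. These genes are named here by their values or as common markers, after the values were seen.

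The level of the whole set moved between libraries as well as between groups. Taken as the median over the 38 genes of the log2 difference from the normal mean, it was 0.45, -0.04 and -0.38 in the normal libraries, -0.84, -0.07 and -0.46 at 1 h and -0.94, -0.36 and -0.48 at 4 h. The 46 other endothelial genes gave 0.59, -0.14 and -0.40, then -0.41, 0.11 and -0.26, then -0.95, -0.11 and -0.20. Normal replicate 1 was highest by both lists and replicate 1 at 4 h lowest by both, and these were also the libraries with the lowest and the highest smooth muscle sums. Normal replicate 3 lay among the ischemic libraries by both lists. When libraries were scaled to the 46 other endothelial genes instead of by TMM, an alternative chosen after the data were seen, 9 of 38 genes reached an unadjusted p below 0.05 at 1 h, beside 12.5% of all genes, and 6 of 38 at 4 h, beside 7.69%. The median of the 38 genes was then -0.47 at 1 h and -0.25 at 4 h, and that of all genes -0.07 and 0.36.

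**Figure D5:**
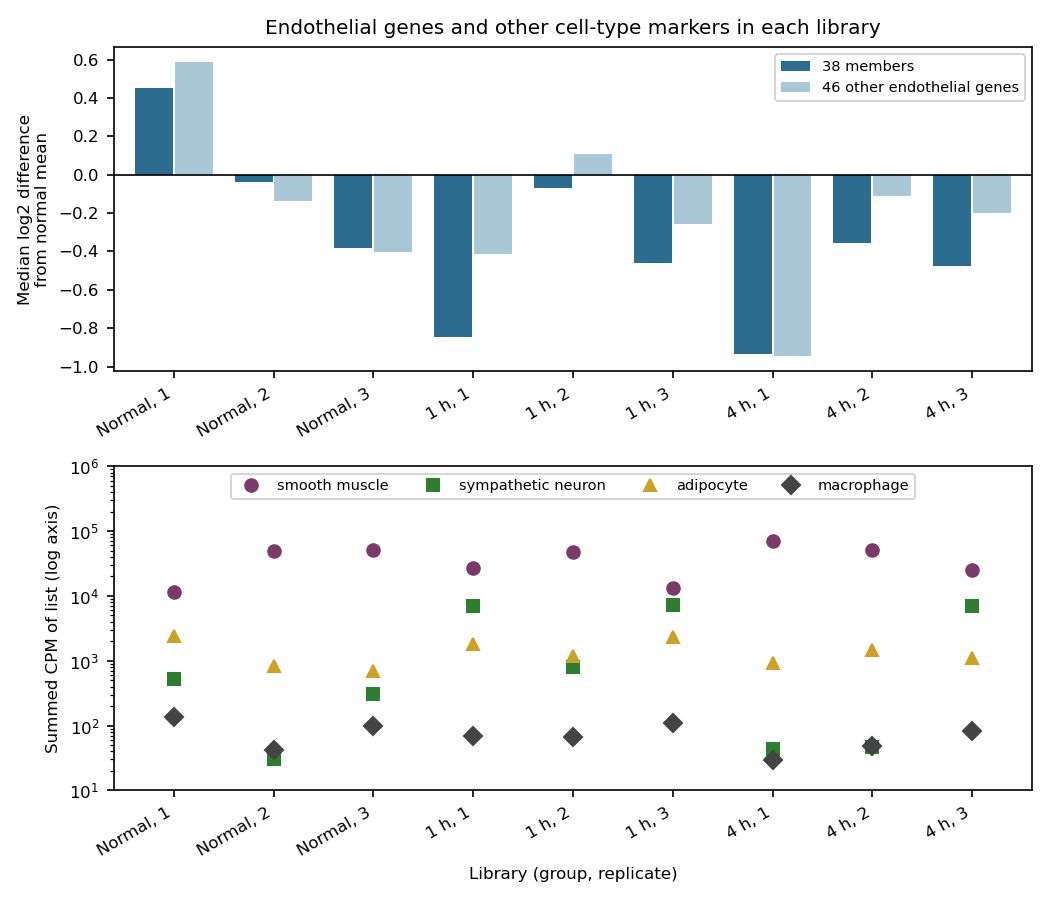
Upper panel: median log2 difference from the normal mean in each library for the 38 tested endothelial identity genes and for 46 other endothelial genes. Lower panel: summed CPM (log axis) of smooth muscle, sympathetic neuron, adipocyte and macrophage genes, where the neuron sum is over 7000 CPM in 3 libraries and at most 797 CPM in the other 6.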

How the data were processed

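RNA of whole superior mesenteric arteries was sequenced on an Illumina instrument, per the labels, in 9 libraries of 3 groups. The authors deposited raw counts per gene symbol. The submitters' processing notes name HISAT2, and its version, the counting program, the genome build, the annotation and the use of strand are not given in the sources used here. The study's methods describe Agilent microarrays, but the values are whole numbers with unequal totals and were analysed as counts. Without a stated strand, reads of a gene and of one antisense to it cannot be told apart.

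Groups were taken from the labels. The 39 genes, their roles and all lists were chosen with earlier results of these data known. Tests used R 4.3.3 with edgeR 4.0.16: filterByExpr, TMM scaling, and the quasi-likelihood F-test over all 9 libraries with group as the only term, with p-values adjusted by Benjamini-Hochberg over 15482 genes. A call needed an adjusted p under 0.05 and a fold change over 1.5. The SE of a log2 fold change is its size divided by the square root of F. The common biological coefficient of variation was 51.6%. With 3 libraries against 3, an exact permutation test of a single value cannot go below p = 0.1, so none was run. DESeq2 1.42.0 was an alternative. No pair of libraries was a copy (lowest chi-square per degree of freedom 32.2). The tests were tried on simulated counts. The limit for a count of 0 (3 counts) covers counting error only.

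Values per library are given for genes with an unadjusted p under 0.05 or without overlap against normal, for the gene of each role with the highest mean CPM, and for genes marking a vessel bed. The other genes are given by means or ranges. Genes outside the 39 are named by their values, after these were seen.

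Lists of other cell types were summed in CPM. Fibroblast, smooth muscle, sympathetic neuron, macrophage and mast cell sums are given with the genes they bear on. Over the 9 libraries Schwann cell genes summed to 121 to 4183 CPM, adipocyte genes to 689 to 2422 CPM, lymphocyte genes to 0.334 to 39.6 CPM, mesothelial genes to 0.334 to 5.48 CPM, red cell and platelet genes to 57.9 to 299 CPM, and the further lymphatic genes to 262 to 694 CPM. The covariate scores are the mean log2 CPM of a list. Some genes of these lists are also expressed in more than 1 of these cell types. Of the 39 genes, 8 were flagged beforehand as also made by other cells. The flag is not complete, since Mmrn1, which platelets store, is not among the 8. Promoter windows come from a RefSeq table of assembly GRCr8, matched by symbol. Alternatives were other scalings, no filter, only the groups compared, a replicate block, the covariates and leaving out each library.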

Additional observations from a re-analysis of the deposited data

How the results depend on the processing

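For the 29 log2 fold changes against normal with an unadjusted p under 0.05 or without overlap between the groups, none changed sign over the alternatives run. None of the 29 was called in the main fit. Over the alternatives 543 values stayed uncalled and 8 were called, 7 of them under DESeq2 and 1 (Gja5 at 4 h) with the sympathetic neuron score as a covariate. The 29 were picked by their values in these same data, so their steady sign is not separate support. Over all 38 genes, 16 fitted values at 1 h, 10 at 4 h and 28 for 4 h against 1 h changed sign under at least 1 alternative, and 0 of these had an unadjusted p under 0.05. The number of genes called was 3 at 1 h and 4 at 4 h under DESeq2 and 1 at 4 h with that covariate, and 0 under every other alternative. Leaving out each library in turn, the genes with an unadjusted p below 0.05 numbered from 6 (normal replicate 1 left out, beside 17.1% of all genes, or 1 h replicate 3, beside 8.04%) to 13 (normal replicate 3, beside 11.3%) at 1 h. They numbered from 8 (normal replicate 1, beside 10.1%; 9 with 4 h replicate 1 left out, beside 10.8%) to 17 (normal replicate 3, beside 10.8%) at 4 h. For 4 h against 1 h they numbered from 0 (4 libraries left out in turn, beside 0.806% to 5.60%) to 5 (4 h replicate 3, beside 20.7%), with 3 without normal replicate 1 (beside 3.02%). The median log2 fold change then ran from -0.73 to -0.21, from -0.83 to -0.35 and from -0.31 to 0.062, the last with 1 h replicate 2 left out. Of the 2 alternatives chosen after the data were seen, the first left out the 3 libraries highest in neuron genes. That left only replicate 2 at 1 h, so only an effect size is given, a median of -0.60 for 4 h against 1 h. Scaling to the other endothelial genes gave 9 genes with an unadjusted p under 0.05 at 1 h (beside 12.5% of all genes). At 4 h it gave 6 such genes (beside 7.69%) and a median of -0.25 (all genes 0.36). Its median for 4 h against 1 h was 0.23 (all genes 0.35). Scaling by library size alone shifted the median of all genes to -0.15 at 4 h and -0.24 for 4 h against 1 h. For 4 h against 1 h, the number of genes was 0 with library size alone (beside 2.03%), 0 without a filter (2.25%), 0 with the smooth muscle score (2.002%) and 3 with only the groups compared (1.98%). The cause of these differences was not tested.

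Whether replicate numbers mark matched libraries could not be told. Same-numbered libraries had correlations of -0.66 to 0.69, and libraries with different numbers had correlations of -0.73 to 0.66. The values were centred within groups of 3 libraries, so the correlations cannot decide the question. With a replicate block 9 genes at 1 h, 13 at 4 h and 0 for 4 h against 1 h had an unadjusted p under 0.05, beside 18.0% of all genes, 11.4% and 2.4997%, the medians were -0.46, -0.63 and -0.15, and 0 genes were called. Robo4 was too low to be tested. Nostrin was tested on few counts, and its log2 fold change ran over the alternatives from -0.25 to 2.11 at 1 h and from -1.77 to 0.24 at 4 h.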
